A study of Rattus norvegicus with 4 samples.

Results

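The miR-29 family comprised 3 mature miRNAs in these data, miR-29a-3p, miR-29b-3p and miR-29c-3p, out of 405 rat mature miRNAs with at least 1 read and 684 names in the RefSeq miRNA table of the assembly GRCr8. A sequenced read was given to a member if its first 18 nt were those of the member's mature sequence. The longest common start decided between members that share those bases, and ties were split equally.

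The cells were aortic vascular smooth muscle cells of Sprague-Dawley rats, kept without serum for 48 h. One library was made from cells without angiotensin II (control), and 1 each from cells exposed to 100 nM angiotensin II (Ang II), a vasoconstrictor peptide hormone, over 1 h, 3 h and 24 h, so that the series addressed how small RNAs change over time under the hormone. No group had a second library, the control label gives no time, and 1 control serves all 3 comparisons, so that an effect of Ang II cannot be told apart from one of time in culture. No test of conditions was possible. A ratio was instead called higher or lower by size, with a limit of 1.5-fold on log2((RPM + 1)/(RPM + 1)) and at least 100 reads in the higher library, where RPM is the number of reads per 1000000 reads of a library that name a sequence. Intervals are exact, at 95%, and cover counting error only, since copies made by PCR are not independent molecules and the spread between cultures is unknown.

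The libraries held 14395539 reads (control), 13119417 (1 h), 14370167 (3 h) and 14534892 (24 h), of which 68.4% to 74.4% were given to a reference miRNA. The 4 smooth muscle markers, the 2 arms each of miR-143 and miR-145, summed to 251047 RPM in the control and to 305774 to 312678 RPM under Ang II. Of the control sum, 248197 RPM were miR-143-3p, whose log2 ratios to the control were 0.29, 0.32 and 0.30 after 1 h, 3 h and 24 h. The median log2 ratio of the 4 markers was 0.03, -0.09 and 0.20, and miR-145-3p was lower each time (-0.22, -0.28 and -0.06). Against these sums, the 2 endothelial arms of miR-126a came to 105 to 125 RPM. The 4 striated muscle miRNAs summed to 98.4 to 122 RPM with miR-133b-3p at 0. Of their 1759 control reads, 1718 were miR-1-3p, while miR-206-3p had 21 to 38 reads per library and miR-133a-3p 1 to 11. Blood and immune markers (4 of 5 in the reference table) summed to at most 0.757 RPM with miR-142-5p and miR-223-3p at 0, and the epithelial markers (2 of 4) to 3.54 to 6.40 RPM. The part of these levels in the results was not tested. In a bulk library, fewer cells of a type and less RNA per cell cannot be told apart.

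A miRNA guides an Argonaute protein to messenger RNAs that pair with its seed, the bases near its 5′ end, and lowers their stability and translation. The miR-29 miRNAs share a seed and are best known for repressing messages of the extracellular matrix, among them fibrillar collagens, elastin and fibrillin, and, in human cells, the DNA methyltransferases DNMT3A and DNMT3B. In mouse heart, lowering miR-29 is known to raise collagen messages. Their hairpins are made from a pair of clusters on different chromosomes, and each hairpin can release a 5p and a 3p arm, the 3p arm being the usual guide strand.

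The mature members are given below because every result turns on how they can be told apart. Capitals mark the seed (bases 2 to 8), and the sequences are those of RefSeq (GRCr8).

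miR-29a-3p: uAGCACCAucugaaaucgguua
miR-29b-3p: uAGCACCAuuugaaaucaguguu
miR-29c-3p: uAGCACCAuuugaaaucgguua

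No other reference miRNA had the seed AGCACCA. With positions counted from 1 at the 5′ end, miR-29a-3p and miR-29c-3p differ by the single substitution C10U. From miR-29c-3p to miR-29b-3p, the changes are G18A, U21G and A22U, and miR-29b-3p is 23 nt long, against 22 nt for the other members. Since miR-29b-3p and miR-29c-3p share their first 17 nt, base 18 is the first that separates them.

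The precursors are shown because they set which cluster each read can be traced to. Capitals here mark the annotated 5p and 3p arms.

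Mir29a: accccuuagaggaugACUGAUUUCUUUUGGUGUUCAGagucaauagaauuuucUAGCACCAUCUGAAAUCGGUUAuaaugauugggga
Mir29b1: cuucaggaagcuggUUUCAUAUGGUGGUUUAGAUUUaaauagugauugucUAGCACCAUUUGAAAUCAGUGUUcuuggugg
Mir29b2: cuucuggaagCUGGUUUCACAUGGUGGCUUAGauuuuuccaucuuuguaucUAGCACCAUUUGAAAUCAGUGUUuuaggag
Mir29c: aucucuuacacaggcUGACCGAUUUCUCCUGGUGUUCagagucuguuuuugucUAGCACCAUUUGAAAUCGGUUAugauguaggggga

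Mir29a (chr4:60617955-60618042) and Mir29b1 (chr4:60618334-60618414) lie on the minus strand with 291 bases between them. Mir29b2 (chr13:109098831-109098911) and Mir29c (chr13:109099359-109099446) lie on the plus strand with 447 bases between them. The mature miR-29b-3p is identical in Mir29b1 and Mir29b2, so its reads cannot be divided between the clusters. The 5p arms differ between all 4 hairpins.

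miR-29a-3p was the abundant member, and its ratios to the control lay between 0.886 and 0.943. It had 24210 reads in the control, 19557 after 1 h, 22576 after 3 h and 23058 after 24 h, which came to 1682 RPM (1661 to 1703), 1491 RPM (1470 to 1512), 1571 RPM (1551 to 1592) and 1586 RPM (1566 to 1607). The control was highest and the 1 h library lowest, while 3 h and 24 h did not differ beyond counting error (24 h over 3 h 1.01, 0.991 to 1.03). Relative to the control the level was 0.886 after 1 h (0.870 to 0.903), 0.934 after 3 h (0.917 to 0.951) and 0.943 after 24 h (0.926 to 0.960), or log2 ratios of -0.17, -0.10 and -0.08, none near the limit. The median log2 ratio over all miRNAs with 100 reads was -0.09, -0.05 and -0.25, and the sign of the miR-29a-3p ratio after 24 h turned with factors that centre that distribution (0.15 with TMM factors, which shifted every ratio by 0.24, and 0.17 with median-of-ratios factors, which shifted it by 0.25).

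miR-29b-3p was higher in every Ang II library than in the control. It had 1733 reads in the control, 2066 after 1 h, 2764 after 3 h and 2810 after 24 h, which came to 120.4 RPM (115 to 126), 157 RPM (151 to 164), 192 RPM (185 to 199.7) and 193 RPM (186 to 201). The control lay lowest and 1 h next, and the 3 h and 24 h libraries did not differ beyond counting error (24 h over 3 h 1.01, 0.953 to 1.06). Over the control, the level was 1.31-fold after 1 h (1.23 to 1.40), 1.60-fold after 3 h (1.504 to 1.70) and 1.61-fold after 24 h (1.51 to 1.71), with log2 ratios of 0.38, 0.67 and 0.68. It therefore passed the limit after 3 h and after 24 h, at place 6 of 175 and 8 of 177 miRNAs from the top, and was at place 11 of 173 in the 1 h comparison.

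Both calls are close to the limit. Scaled to reads given to a miRNA, the log2 ratio after 3 h was 0.55, under the 0.58 that 1.5-fold corresponds to, while that after 24 h was 0.61. With the 1 h library as the denominator, it was 0.29 for both later times, so that neither call held.

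miR-29c-3p was the rarest member. It had 149 reads in the control, 144 after 1 h, 190 after 3 h and 177 after 24 h, which came to 10.4 RPM (8.76 to 12.2), 10.98 RPM (9.26 to 12.9), 13.2 RPM (11.4 to 15.2) and 12.2 RPM (10.4 to 14.1). No neighbours in the order 3 h, 24 h, 1 h and control differed beyond counting error. The level was 1.06 times the control after 1 h (0.837 to 1.34), 1.28 times after 3 h (1.03 to 1.59) and 1.18 times after 24 h (0.941 to 1.47), and the log2 ratios were 0.08, 0.33 and 0.22, the first turning to -0.0041 when scaled to miRNA reads. With the annotated sequence alone, on 45 to 76 reads, they were -0.30, 0.21 and -0.17. None passed the limit, and at this depth a difference from the control was beyond counting error after 3 h alone. This depended on scaling, since the shift of ratios after 3 h with miRNA reads (-0.12 in log2) takes the lower bound of 1.03 below 1.

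**Figure D1:**
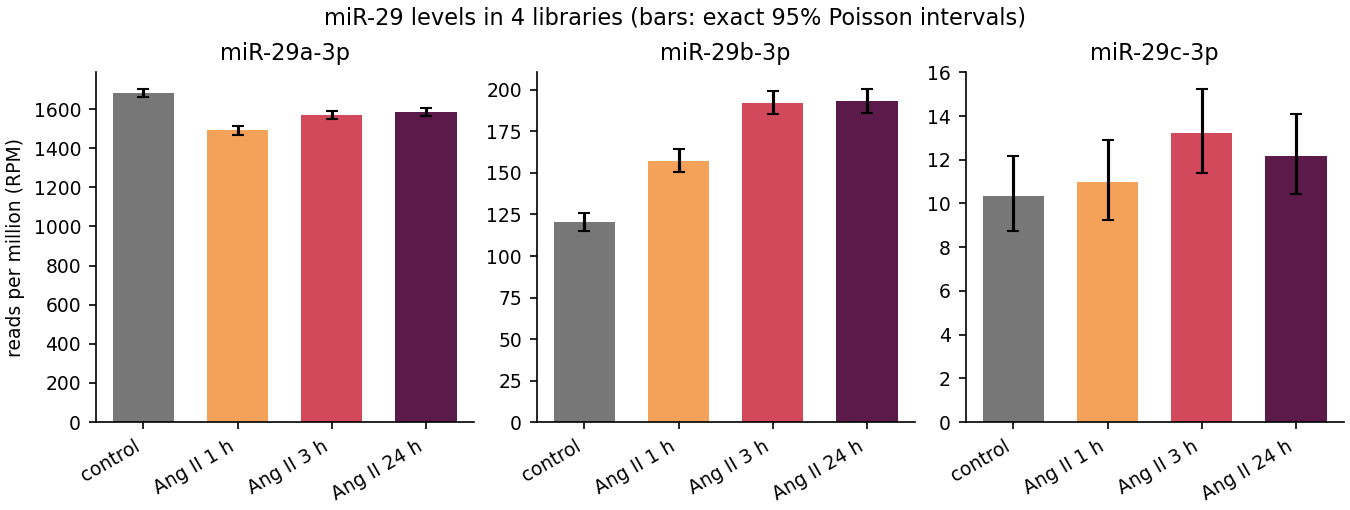
Level of each miR-29 member (RPM, linear axis from 0, a separate scale in each panel) in the control and after 1 h, 3 h and 24 h of Ang II, 1 library each, with exact 95% Poisson intervals. miR-29a-3p lies between 1491 and 1682 RPM, highest in the control, whereas miR-29b-3p lies at 192 and 193 RPM after 3 h and 24 h, against 120.4 RPM in the control.

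Of the 3 members, 0 passed the size limit after 1 h, where 2.31% of 173 miRNAs with 100 reads were called higher and 2.31% lower, that is 4 and 4 miRNAs, or 3 and 9 scaled to miRNA reads and 7 and 3 with TMM factors. At 3 h 1 member, miR-29b-3p, was called higher, against 4.00% higher and 4.00% lower of 175 miRNAs, that is 7 and 7, or 5 and 14 scaled to miRNA reads. At 24 h the same member was called higher, against 5.08% higher and 16.4% lower of 177 miRNAs, that is 9 higher and 29 lower, or 12 and 12 with TMM factors. No member was called lower at any time, and none was called with a limit of 2-fold. In the plot of log2 ratios, miR-29b-3p lies near the upper edge of all miRNAs, miR-29c-3p above the middle and miR-29a-3p within the bulk. After 1 h the ratio interval of miR-29c-3p (0.837 to 1.34) overlapped those of miR-29a-3p (0.870 to 0.903) and miR-29b-3p (1.23 to 1.40). The miR-29c-3p interval overlapped that of miR-29b-3p after 3 h and that of miR-29a-3p after 24 h.

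**Figure D2:**
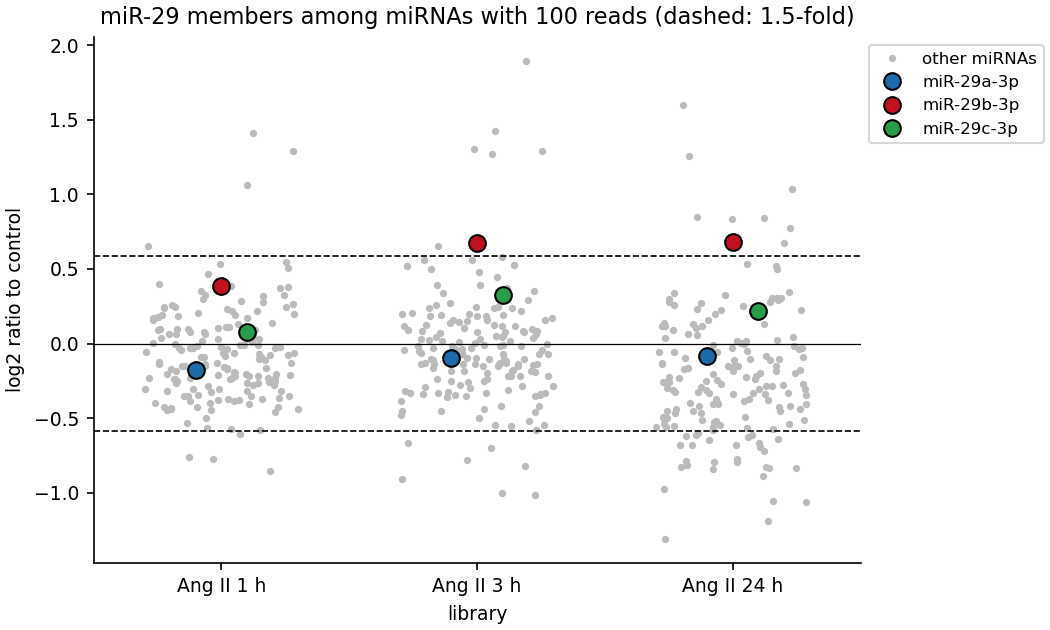
Log2 ratio to the control of every miRNA with 100 reads in the higher library (grey) and of the miR-29 members (coloured), after 1 h, 3 h and 24 h of Ang II; sideways position within a time carries no meaning and dashed lines mark 1.5-fold. miR-29b-3p is above the upper line after 3 h (0.67) and 24 h (0.68), and miR-29a-3p is between -0.17 and -0.08 throughout.

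The summed family followed its abundant member. The 3 members together held 26092 reads in the control, 21767 after 1 h, 25530 after 3 h and 26045 after 24 h, or 1813, 1659, 1777 and 1792 RPM. The ratio to the control was 0.915 after 1 h (log2 -0.13), 0.980 after 3 h (-0.03) and 0.989 after 24 h (-0.02), and after 24 h the interval of the ratio included 1. The direction after 3 h and 24 h turned with TMM factors (log2 ratios of 0.00034 and 0.22), and it turned in all 3 comparisons when the annotated sequences alone were counted (0.18, 0.42 and 0.38). That count changes the make-up of the sum, since it leaves out a 21-nt tag with 72.7% to 75.2% of miR-29a-3p reads. In it, miR-29b-3p had 1534 of 4330 reads in the control and 2503 of 5795 after 3 h.

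The make-up of the family differed between libraries, and ratios within a library do not depend on scaling. There were 7.16 miR-29b-3p reads per 100 miR-29a-3p reads in the control (6.81 to 7.52), 10.6 after 1 h (10.1 to 11.1), 12.2 after 3 h (11.8 to 12.7) and 12.2 after 24 h (11.7 to 12.7). The intervals of all Ang II libraries lay above that of the control. miR-29a-3p made up 92.8% of the family's reads in the control, 89.8% after 1 h, 88.4% after 3 h and 88.5% after 24 h, miR-29b-3p 6.64%, 9.49%, 10.8% and 10.8%, and miR-29c-3p 0.571%, 0.662%, 0.744% and 0.680%. miR-29c-3p reads per 100 miR-29a-3p reads were 0.615 in the control (0.520 to 0.723) and 0.736 (0.621 to 0.867), 0.842 (0.726 to 0.971) and 0.768 (0.658 to 0.890) after 1 h, 3 h and 24 h, so that the interval after 3 h alone was separate from the control's. Read counts of different miRNAs are not on a common molar scale, so these shares describe reads and not molecules.

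Since miR-29c-3p is 1 base from a member more than 100 times as often read, other single-base changes of miR-29a-3p were counted beside it. Tags with the other bases at that position, C10A and C10G, had 0 to 3 reads in any library. The other C-to-T changes of miR-29a-3p had 3 to 19 reads, against 144 to 190 for miR-29c-3p. Over all 53 other single-base changes of the first 18 nt the median was 9 reads per library, but 4 changes had as many reads as miR-29c-3p or more in at least 1 library, namely A14C (347 to 431), A13C (237 to 411), A15C (156 to 325) and G18T (125 to 235). How far misread miR-29a-3p contributes to the miR-29c-3p count was not tested.

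The miRNAs whose 3 log2 ratios lay nearest to those of each member were found among 158 others with 100 reads in all 4 libraries, as the Euclidean distance over the 3 comparisons, which share their control. Nearest to miR-29a-3p were miR-330-5p (0.10), miR-125b-5p (0.12), miR-23b-3p (0.12), miR-192-5p (0.12) and miR-27b-5p (0.13). For miR-29b-3p the nearest were farther off, namely miR-193a-3p (0.30), miR-31a-3p (0.31), miR-7a-5p (0.38), miR-182 (0.39) and miR-547-3p (0.40). For miR-29c-3p they were let-7a-1-3p/let-7c-2-3p (0.14), miR-21-5p (0.14), miR-500-3p (0.15), miR-194-5p (0.15) and miR-143-3p (0.23). None of the members was among the 5 nearest of another. From miR-29a-3p, miR-29c-3p was at place 104 of 158 and miR-29b-3p at place 153. From miR-29b-3p, miR-29c-3p was at place 14 and miR-29a-3p at place 71. From miR-29c-3p, miR-29a-3p was at place 58 and miR-29b-3p at place 73.

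The 3′ ends separated the members as well. The tags below are printed because the most read form of miR-29a-3p was not the annotated one, with the seed in capitals, and T stands for U as in the sequenced DNA.

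miR-29a-3p, 21 nt: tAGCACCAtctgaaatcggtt
miR-29b-3p, 23 nt: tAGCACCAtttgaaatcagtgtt
miR-29c-3p, 21 nt: tAGCACCAtttgaaatcggtt

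The 21-nt tag of miR-29a-3p, which lacks the last A of the mature sequence, had 18218 reads in the control, 14480 after 1 h, 16422 after 3 h and 17037 after 24 h, or 72.7% to 75.2% of the member's reads. The annotated 22-nt sequence had 2732, 2576, 3216 and 3118 reads in the same order, or 11.3% (10.9 to 11.7), 13.2% (12.7 to 13.7), 14.2% (13.8 to 14.7) and 13.5% (13.1 to 14.0). The full-length share was therefore lowest in the control, and its intervals there and under Ang II did not overlap. The forms also moved apart. The 21-nt tag was at 0.872 (0.853 to 0.891), 0.903 (0.884 to 0.922) and 0.926 (0.907 to 0.946) of its control level after 1 h, 3 h and 24 h, and the 22-nt sequence at 1.03 (0.980 to 1.09), 1.18 (1.12 to 1.24) and 1.13 (1.07 to 1.19), above the control beyond counting error at the later times. The 20-nt tag (1199 to 1582 reads) and the 19-nt tag (286 to 434) were further trimmed forms, and a 23-nt tag with the next hairpin base had 182 to 266 reads.

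In contrast, miR-29b-3p was read almost wholly at full length. Its 23-nt sequence had 1534 reads in the control, 1861 after 1 h, 2503 after 3 h and 2525 after 24 h, or 88.5%, 90.1%, 90.6% and 89.9% of its reads, and alone gave 1.33-fold (1.24 to 1.43), 1.63-fold (1.53 to 1.74) and 1.63-fold (1.53 to 1.74) the control. The ratios of the whole member are thus those of its annotated sequence. Tags of 22, 21 and 20 nt had 8 to 108 reads, and a 26-nt tag whose last 3 bases neither hairpin has there (tagcaccatttgaaatcagtgttaga) had 20, 29, 45 and 17 reads.

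miR-29c-3p was split between its 22-nt sequence, with 64, 45, 76 and 56 reads from the control to 24 h, and the 21-nt tag without the last A, with 55, 62, 67 and 79 reads. Its full-length share was 42.95% in the control (34.9 to 51.3), 31.3% after 1 h (23.8 to 39.5), 40% after 3 h and 31.6% after 24 h, with intervals too wide at this depth to separate the libraries. The remaining named tags, of 20, 19 and 23 nt, had 1 to 19 reads each.

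**Figure D3:**
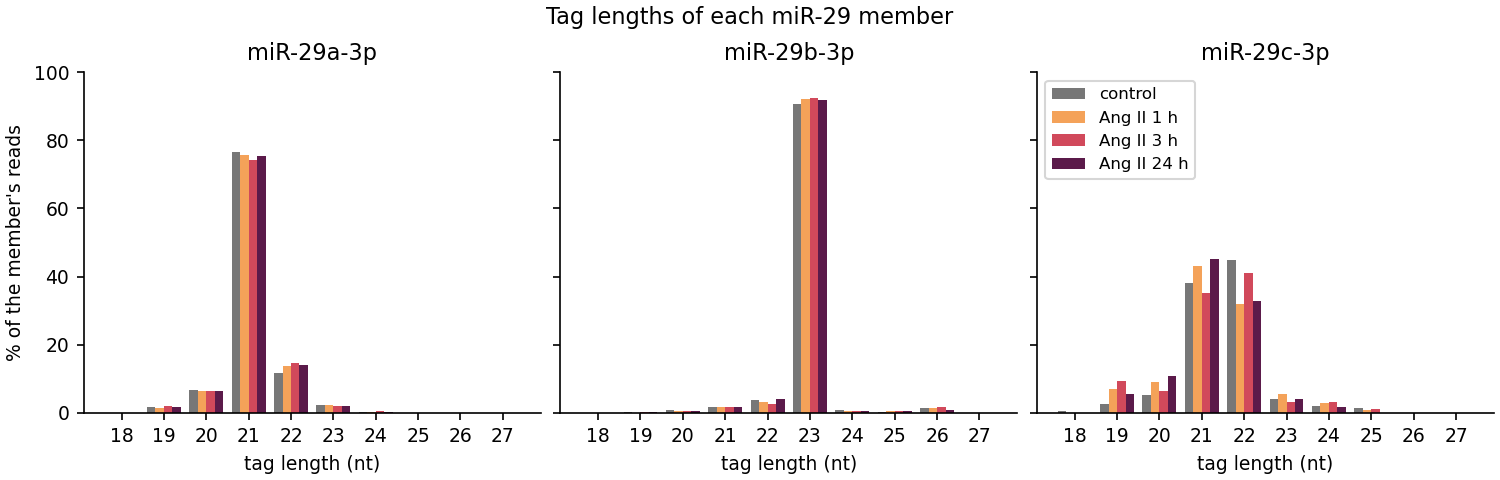
Share of each member's reads (percent) by length of the sequenced tag in nt, in the control and after 1 h, 3 h and 24 h of Ang II. miR-29a-3p peaks at 21 nt, 1 below its annotated length, miR-29b-3p at its annotated 23 nt, and miR-29c-3p has both 21 and 22 nt.

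Reads that begin 1 or 2 nt from the annotated 5′ end were not counted above, and they carry another seed. They were looked at after the levels had been seen. The forms that were common are printed with their shifted seeds in capitals.

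miR-29a-3p, 1 nt before: cTAGCACCatctgaaatcggtt
miR-29b-3p, 2 nt after: gCACCATTtgaaatcagtgtt

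The form of miR-29a-3p that begins 1 nt earlier, with the C of the hairpin, had 8377 reads in the control, 6770 after 1 h, 7784 after 3 h and 8395 after 24 h. It made up 25.4% (24.9 to 25.8), 25.4% (24.9 to 25.9), 25.3% (24.8 to 25.8) and 26.4% (25.9 to 26.9) of the reads over the 5 starts from 2 nt before to 2 nt after the annotated one. The share did not differ beyond counting error between the control, 1 h and 3 h libraries. Among the 82 to 86 miRNAs with 1000 reads, miR-29a-3p was at place 4 for this shift in every library, and their median was 0.0400% to 0.0532%. No reference miRNA has its seed, TAGCACC.

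The same shift was less common in the other members, although the base before the mature start is C in all 4 hairpins. It was at 1.13% to 2.09% for miR-29b-3p, at place 13 to 18 from the top. For miR-29c-3p it was at 3.02% to 3.97%, on 6 reads in each library. Both members were thus above the median of 0.0400% to 0.0532%.

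miR-29b-3p instead had a form that begins 2 nt later, with 271 reads in the control, 240 after 1 h, 336 after 3 h and 299 after 24 h. It was 12.9% of the reads over the 5 starts in the control (11.5 to 14.4), 10.0% after 1 h (8.85 to 11.3), 10.5% after 3 h (9.42 to 11.6) and 9.28% after 24 h (8.30 to 10.3), also at place 4 in every library, against medians of 0.0346% to 0.0551%. The form was at 0.972 of the control after 1 h (0.813 to 1.16), 1.24 after 3 h (1.06 to 1.46) and 1.09 after 24 h (0.924 to 1.29), so it did not pass the limit that the annotated start passed after 3 h and 24 h. Its seed, CACCATT, belongs to no reference miRNA. The later start was read 36 to 73 times for miR-29a-3p and 0 or 1 times for miR-29c-3p.

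With all starts added, the log2 ratios of miR-29b-3p were 0.32, 0.61 and 0.60 after 1 h, 3 h and 24 h, and those of miR-29a-3p -0.17, -0.10 and -0.07.

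**Figure D4:**
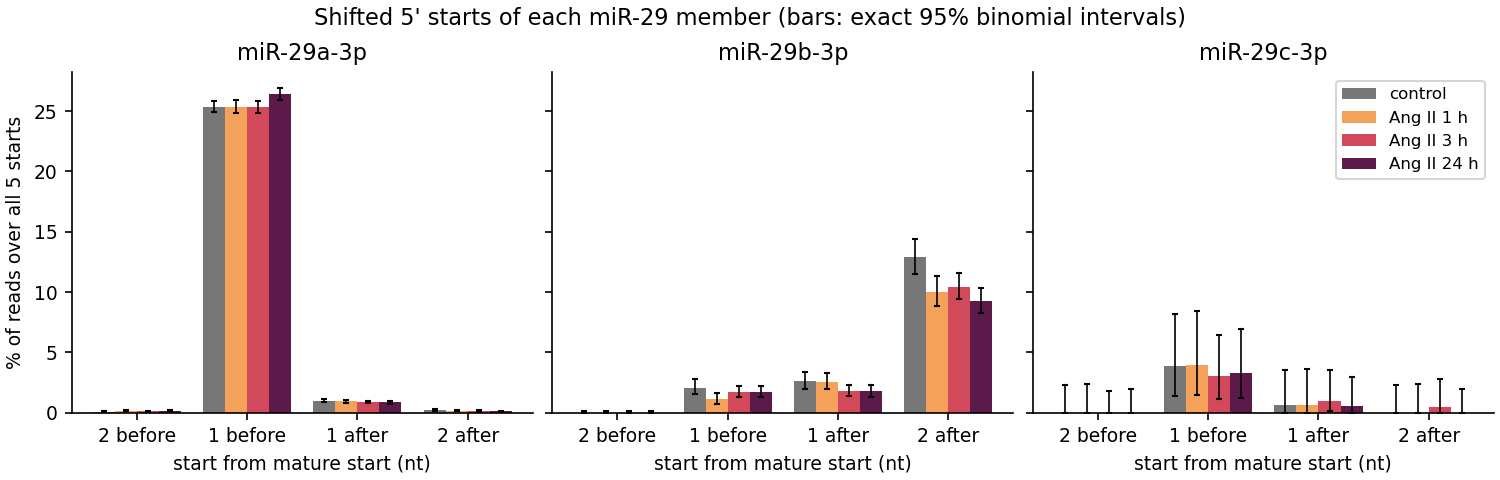
Share of reads (percent) that begin 1 or 2 nt before or after the annotated 5′ start of each member, of all reads over 5 starts, in the control and after 1 h, 3 h and 24 h of Ang II, with exact 95% binomial intervals. miR-29a-3p has 25.3% to 26.4% of reads 1 nt before its start, and miR-29b-3p has 9.28% to 12.9% 2 nt after it.

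The 5p arms, the usual passenger strands, can be traced to a hairpin, since each differs in sequence. Whether their levels follow the output of a cluster was not tested. miR-29a-5p had 292 reads in the control, 330 after 1 h, 442 after 3 h and 353 after 24 h, or 20.3, 25.2, 30.8 and 24.3 RPM. It was 1.24-fold the control after 1 h (1.06 to 1.46), 1.52-fold after 3 h (1.31 to 1.76) and 1.20-fold after 24 h (1.02 to 1.40), with the log2 ratio after 3 h, 0.577, under the limit of 0.585. The gap is smaller than the shift of ratios after 3 h with TMM (0.029) or median-of-ratios factors (0.035), which would take this arm past the limit. Scaling to miRNA reads shifted ratios the other way (-0.12). The pseudocount of 1 RPM also matters here, since the 1.52-fold after 3 h, taken without it, is past 1.5-fold. Beside each miR-29a-5p read there were 82.9 miR-29a-3p reads in the control (73.9 to 93.4), 59.3 after 1 h (53.2 to 66.3), 51.1 after 3 h (46.5 to 56.2) and 65.3 after 24 h (58.8 to 72.8). The arms of this 1 hairpin thus differed in direction, the 5p arm higher and the 3p arm slightly lower under Ang II with this scaling, and every Ang II interval of their ratio lay below that of the control.

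The other 5p arms were rare. miR-29b-5p, from Mir29b2, had 29, 21, 23 and 29 reads from the control to 24 h, and miR-29c-5p had 11, 13, 5 and 6. miR-29b-1-5p had 0 reads at its annotated start in all 4 libraries, with exact upper bounds of 0.254 to 0.281 RPM.

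After these values had been seen, reads of at least 18 nt that match a hairpin throughout and lie in its 5p arm were counted whatever their start. None of them matched more than 1 of the 4 hairpins. The most read tag of each arm is printed because the Mir29b1 tag begins 5 nt before the annotated miR-29b-1-5p, which left this arm at 0 above.

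Mir29a 5p arm: actgatttcttttggtgttcagag
Mir29b1 5p arm: gctggtttcatatggtggtttaga
Mir29b2 5p arm: ctggtttcacatggtggcttaga
Mir29c 5p arm: accgatttctcctggtgttcaga

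The Mir29b1 arm had 7 reads in the control, 27 after 1 h, 49 after 3 h and 11 after 24 h, or 0.486, 2.06, 3.41 and 0.757 RPM. The 1 h and 3 h libraries were high, and the control and 24 h libraries low. The level was 4.23-fold the control after 1 h (1.80 to 11.5), 7.01-fold after 3 h (3.16 to 18.4) and 1.56-fold after 24 h (0.551 to 4.73), and after 3 h it was 4.51-fold that after 24 h (2.31 to 9.61). With fewer than 100 reads it was outside the size rule.

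The Mir29a arm had 296, 334, 425 and 347 reads from the control to 24 h, and was 1.24-fold the control after 1 h (1.06 to 1.45), 1.44-fold after 3 h (1.24 to 1.67) and 1.16-fold after 24 h (0.991 to 1.36). Both arms of the chromosome 4 cluster were therefore highest after 3 h. Together they had 303 reads in the control and 361, 474 and 358 after 1 h, 3 h and 24 h, a ratio of 1.57 after 3 h (1.35 to 1.82).

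The chromosome 13 arms did not share this order. Mir29b2 had 31 reads in the control, 20 after 1 h, 27 after 3 h and 30 after 24 h, and every ratio's interval included 1. Mir29c had 41, 26, 23 and 25 reads, at 0.696 of the control after 1 h (0.409 to 1.17), 0.562 after 3 h (0.322 to 0.959) and 0.604 after 24 h (0.352 to 1.02). Summed, these arms had 72, 46, 50 and 55 reads, with intervals of all 3 ratios to the control that included 1.

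**Figure D5:**
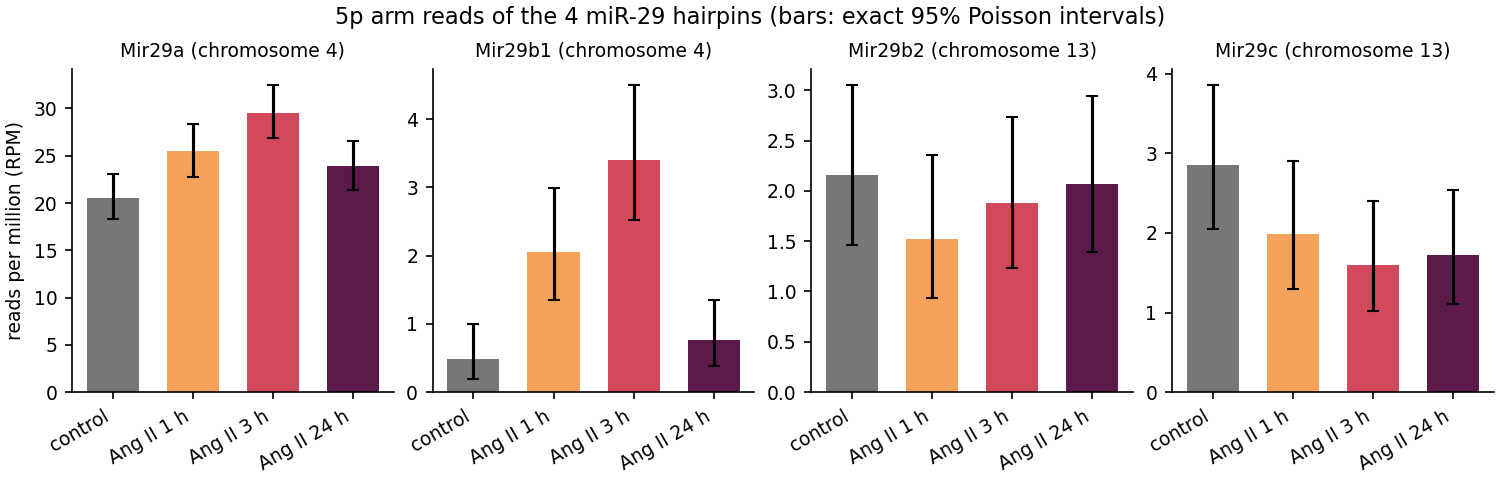
RPM in the 5p arm of each miR-29 hairpin (linear axes from 0, a separate scale in each panel) in the control and after 1 h, 3 h and 24 h of Ang II, with exact 95% Poisson intervals. The chromosome 4 arms are highest after 3 h, where Mir29b1 reaches 3.41 RPM against 0.486 RPM in the control, while the chromosome 13 arms show no such peak, with Mir29b2 at 2.15 RPM in the control and 2.06 RPM after 24 h, within counting error.

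Among 20 other miRNAs linked to matrix production and fibrosis, 18 were in the reference table, and 15, 16 and 16 had 100 reads after 1 h, 3 h and 24 h. None was called higher at any time, beside 2.31%, 4.00% and 5.08% of all miRNAs in the same order, and 1 of 16 was called lower after 24 h, beside 16.4% of all miRNAs. This was miR-18a-5p, a miR-17-92 cluster miRNA known to repress the matrix protein CTGF, with 305 reads after 24 h, against 493 in the control (log2 ratio -0.68). Its call was lost with TMM factors (log2 ratio -0.46), median-of-ratios factors (-0.44) and a pseudocount of 10 RPM (-0.51). The list's median log2 ratio was 0.13, 0.08 and -0.07, beside -0.09, -0.05 and -0.25 over all miRNAs. Its most abundant members were miR-143-3p, a smooth muscle miRNA, with log2 ratios of 0.29, 0.32 and 0.30, and miR-21-5p, known to promote fibrosis in heart, with 0.05 (-0.04 scaled to miRNA reads), 0.24 and 0.33, none of them past the limit.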

How the data were processed

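Small RNA libraries of rat aortic smooth muscle cells were made from 0.5 μg of total RNA with 12 PCR cycles and size selection at 17 to 52 nt, per the labels' protocols. In the files as deposited, each distinct sequence (tag) has its raw read count, 1 file per library, without normalization. Novoalign and the genome build rn4 are named, without a role, per the submitters' processing notes. Trimming and filtering are not given in the sources used here. A row naming no sequence was dropped, with 7.07% of reads in the control and 5.66%, 5.13% and 6.36% in the 1 h, 3 h and 24 h libraries. Tags of 16 to 42 nt were matched to the RefSeq (GRCr8) mature miRNAs, of which 7 shorter than 18 nt were left out.

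The 4 libraries were grouped by label, 1 per group. Log2 ratios, and the calls made on them, used a pseudocount of 1 RPM. Fold ratios and their intervals used no pseudocount. Shares have Clopper-Pearson intervals, counts Poisson intervals and ratios conditional binomial intervals. Named miRNAs were every member, the other arms of their hairpins, the 5 nearest patterns, the 5 most read tags of each member, and in the matrix list those past the limit and the 2 most abundant. Members and lists were chosen with earlier results of these data known. Alternatives were the scaling (miRNA reads, TMM factors from edgeR 4.0.16, median-of-ratios), pseudocount, read minimum, fold limit and match rule. Shifted starts, reads matched to hairpins and the 1 h reference were added after the data had been seen. Matching was tested on simulated data (Python 3.11.15, scipy 1.17.1, R 4.3.3).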

Additional observations from a re-analysis of the deposited data

How the results depend on the processing

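No paired analysis was possible because each group has 1 library, the labels number no replicates and the results come from no test, and no replicate could be left out. For miR-29b-3p the log2 ratio stayed above 0 under all 8 alternatives at 1 h and all 9 at 3 h and at 24 h, and passed 1.5-fold under 7 of 9 at 3 h and 8 of 9 at 24 h. miR-29a-3p kept its direction under 7 of 8, 7 of 9 and 5 of 9 alternatives at the 3 times, and miR-29c-3p under 6 of 8, 9 of 9 and 8 of 9. Scaled to miRNA reads, the family sum had log2 ratios of -0.22, -0.15 and -0.088 at 1 h, 3 h and 24 h, and 0 members passed at 3 h. With TMM factors the sums were -0.034, 0.00034 and 0.22, and with median-of-ratios factors -0.025, 0.0057 and 0.23. Counting the mature sequence alone gave 0.18, 0.42 and 0.38, on 4330 control reads. Against the 1 h library, an alternative chosen after seeing the data, the sums were 0.10 at 3 h and 0.11 at 24 h and 0 members passed, as with a 2-fold limit at both times.

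Over all miRNAs, 8, 14 and 38 were called at 1 h, 3 h and 24 h. The 24 h count was 24 with TMM factors (12 higher, 12 lower), 23 with median-of-ratios factors, 19 with a pseudocount of 10 RPM and 25 with the mature sequence alone, but 53 scaled to miRNA reads (9 higher, 44 lower) and 50 with at least 20 reads. At 1 h the count was 5 with that pseudocount. With at least 20 reads it was 24 at 3 h. With 1000 reads the counts were 4, 7 and 13, with a 2-fold limit 3, 7 and 7, and against the 1 h library 2 at 3 h and 20 at 24 h. Depth limits miR-29c-3p, with under 200 reads, and the 5p arms of Mir29b1, Mir29b2 and Mir29c, with under 50.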
